A study of Rattus norvegicus with 141 samples.

Results

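Pgc, Pga5, Lipf, Cblif and Bhlha15 are genes that mark the chief cell, the zymogen-secreting cell at the base of the stomach gland. They were picked by their symbols, and all 5 were rows of the gene count table of each tissue, among 30562 genes per table. Libraries came from stomach, duodenum and liver of adult wild-type Sprague-Dawley rats on standard chow. Rats of each sex belonged to a vehicle control group, a low microplastics dose of 5 mg/kg or a high dose of 50 mg/kg. Each sex and dose group had 8 libraries, except 7 for duodenum of female controls and 6 for liver of high-dose females. That gave 48 stomach, 47 duodenum and 46 liver libraries, prepared in 3 labelled batches from polyadenylated RNA. Each tissue sample was made of several small frozen pieces ground together, and the mass used varied. Per the labels' protocols, the homogenizer was only rinsed between the tissues of a treatment, and its full cleaning came when the treatment changed. Which libraries are different rats is not in the labels, so p-values measure the spread between these libraries, which may be technical.

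Chief cells pack inactive proteases into large granules and release them on nervous or hormonal stimulation, and stomach acid turns the zymogens into active pepsins. Pgc encodes pepsinogen C, also called progastricsin. Pga5 encodes a pepsinogen A type protease, for which RefSeq lists the synonym Pepf, the fetal pepsinogen. Lipf encodes an acid-stable lipase, which in the rat is known as lingual lipase because it is secreted by glands of the tongue. Cblif encodes intrinsic factor, the carrier that lets vitamin B12 be absorbed in the ileum, and which in rodents is made by chief cells. Bhlha15 encodes MIST1, a basic helix-loop-helix transcription factor that builds the granule and endoplasmic reticulum architecture of secretory cells. Pancreatic acinar cells and antibody-secreting plasma cells use MIST1 as well.

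The start regions of the genes are shown because Bhlha15 encodes a factor of the family that binds E-boxes, and 3 of the other genes are products of the cell in which it acts. The 250 bases before the gene start are given 5′ to 3′ on the gene's strand, from RefSeq on GRCr8, a later build than the mRatBN7.2 named for the count tables. RefSeq's table matched 4 of the 5 symbols, and Lipf had no entry. Capitals mark the E-box pattern CANNTG and the TATA sequence TATAAA, searched on both strands.
Pgc, chr9:20763221-20763470, minus strand: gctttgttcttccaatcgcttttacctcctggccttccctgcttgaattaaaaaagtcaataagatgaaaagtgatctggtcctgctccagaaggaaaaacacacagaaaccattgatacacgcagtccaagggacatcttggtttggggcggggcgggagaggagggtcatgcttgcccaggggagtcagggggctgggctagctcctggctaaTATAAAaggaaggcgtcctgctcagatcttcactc
Pga5, chr1:216752068-216752317, minus strand: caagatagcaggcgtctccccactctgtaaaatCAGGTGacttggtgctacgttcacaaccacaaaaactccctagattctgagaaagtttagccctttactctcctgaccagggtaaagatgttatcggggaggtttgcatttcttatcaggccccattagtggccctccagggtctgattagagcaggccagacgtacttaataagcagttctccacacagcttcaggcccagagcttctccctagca
Cblif, chr1:218030506-218030755, plus strand: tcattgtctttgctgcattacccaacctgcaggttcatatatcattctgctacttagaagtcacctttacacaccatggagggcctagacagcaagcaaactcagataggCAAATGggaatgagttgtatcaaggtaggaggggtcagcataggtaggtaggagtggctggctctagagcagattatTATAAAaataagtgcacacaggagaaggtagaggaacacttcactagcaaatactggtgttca
Bhlha15, chr12:15538300-15538549, minus strand: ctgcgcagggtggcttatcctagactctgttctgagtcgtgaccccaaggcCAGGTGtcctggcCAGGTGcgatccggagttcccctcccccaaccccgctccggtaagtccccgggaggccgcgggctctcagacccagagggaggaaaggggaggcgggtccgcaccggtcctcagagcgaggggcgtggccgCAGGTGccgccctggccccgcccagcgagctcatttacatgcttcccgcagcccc
Pgc held TATAAA from 35 to 30 bases before the start and no CANNTG. Cblif held TATAAA from 63 to 58 bases before the start and the E-box form CAAATG from 140 to 135. The form CAGGTG occurred once in Pga5, from 217 to 212 bases before the start. Bhlha15 itself held CAGGTG at 3 places, starting 199, 186 and 55 bases before its start. Neither CATATG nor CAGCTG, E-box forms that MIST1 is known to bind, was in these 4 windows. Over 33469 promoters of the same length, CANNTG was present in 65.5%, TATAAA in 12.9%, CAGCTG in 12.0% and CATATG in 3.63%. The matches are a description of letters, and CANNTG is common.

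In the stomach, Pgc was the gene with the most counts in 48 of 48 libraries. Levels are given in counts-per-million (CPM), a gene's estimated count scaled by the library total. They carry no correction for gene length, so a level is compared across libraries of 1 gene and not between genes. Pgc was at a median of 89253 CPM, from 41100 to 179203, which is 8.93% of all counts in the median library and 17.9% in the highest. Cblif was at a median of 1039 CPM (614 to 2224) and ranked between 28 and 158 among all genes by count. Bhlha15 was at a median of 66.5 CPM (30.0 to 100) and Pga5 at 52.7 CPM (23.2 to 128). The 5 genes together took from 4.22% to 18.2% of a stomach library. In bulk tissue, fewer chief cells and less RNA per chief cell cannot be told apart.

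Lipf was all but undetected in the stomach. It had 16 counts over 9 of 48 libraries, 0.0333 CPM over the pooled counts, and its highest library was at 0.452 CPM. A count of 0 in 1 library allows up to 0.125 CPM in the deepest and 0.606 CPM in the shallowest. Males held 13 of the 16 counts and females 3, and Lipf was too low to enter the tests. Duodenum had 1 Lipf count and liver 0 in 46 libraries. Among its relatives in the acid lipase family, Lipa, Lipk, Lipm and Lipn were all measured in stomach and are described with the gene lists.

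**Figure D1:**
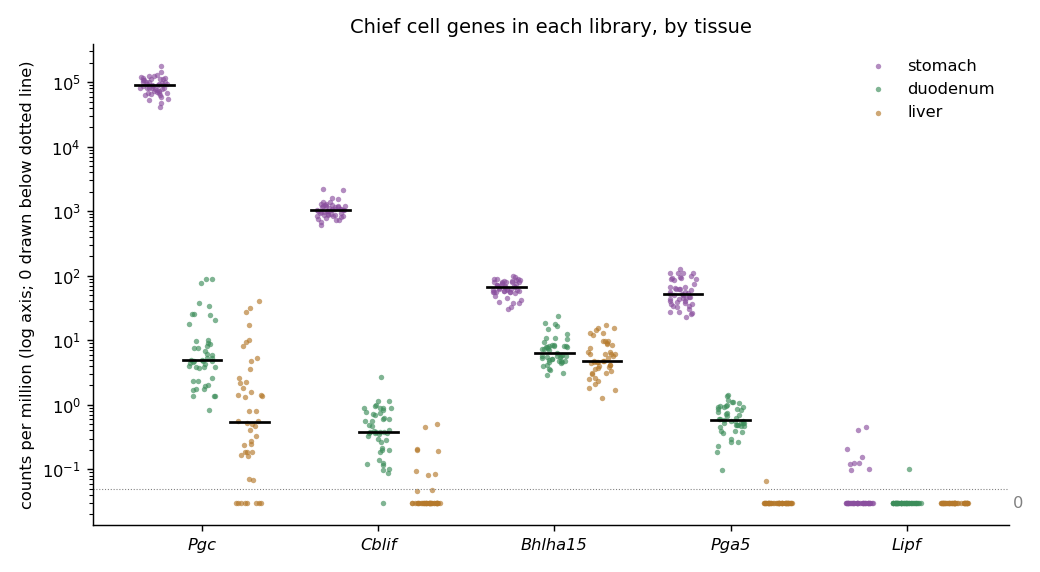
Level of each gene in each library, in CPM on a log axis, with 1 point per library and a black bar at the median of 48 stomach, 47 duodenum and 46 liver libraries (no bar where the median is 0). The stomach points of Pgc, Cblif, Bhlha15 and Pga5 lie above every duodenum and liver point of the same gene, whereas Lipf is at or near 0 in all tissues.

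Outside the stomach the levels were lower by orders of magnitude, except for Bhlha15. The tables of the tissues are separate, so these folds carry no test. The stomach median of Pgc was 18299-fold that of duodenum and 165210-fold that of liver. For Cblif the fold over duodenum was 2714, and for Pga5 it was 90.1. Bhlha15 differed least, with stomach 10.5-fold above duodenum and 13.8-fold above liver. For these 4 genes the lowest stomach library was above the highest library of the other tissues. Between duodenum and liver, the ranges of Pgc, Cblif and Bhlha15 overlapped.

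The first comparison asks whether the high dose moved the chief cell genes in the stomach. Pgc in female libraries had a low, median and high of 69836, 105863 and 124088 CPM in controls. The low dose gave 59468, 86215 and 141713 CPM, and the high dose 62819, 92481 and 117396 CPM. In males, Pgc was at 62949, 91759 and 129254 CPM in controls, 46885, 79169 and 179203 CPM at the low dose, and 41100, 70772 and 101495 CPM at the high dose. The median was lower in both dosed groups of each sex than in its controls, the ranges overlapped throughout, and the highest library of all was a low-dose male. Over both sexes, the high dose was at −0.25 ± 0.16 against control on the log2 scale (SE, 16 libraries per group, adjusted p = 0.329), with a 95% interval from −0.56 to 0.06.

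Bhlha15, the transcription factor gene, had the smallest p of the 4 tested genes. Female controls were at 58.0, 74.1 and 87.9 CPM (lowest, median, highest), low-dose females at 37.6, 71.3 and 100 CPM and high-dose females at 53.5, 66.0 and 87.7 CPM. Male controls were at 57.1, 71.7 and 95.0 CPM, low-dose males at 33.0, 62.4 and 84.7 CPM and high-dose males at 30.0, 51.2 and 82.4 CPM. Medians were ordered from control to high dose in each sex, and all groups overlapped. The high-dose difference over both sexes was −0.27 ± 0.13 (adjusted p = 0.186 by edgeR), which was under 0.05 before adjustment and did not pass the threshold of an adjusted p of 0.05.

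Cblif was not called at the high dose. Its lowest, median and highest levels were 910, 1065 and 1255 CPM in female controls, 722, 978 and 1409 CPM at the low dose and 679, 1090 and 1586 CPM at the high dose. In males they were 773, 1221 and 2156 CPM in controls, 850, 989 and 2224 CPM at the low dose and 614, 959 and 1145 CPM at the high dose. A control male and a low-dose male stood far above the other male libraries. The high-dose estimate was −0.16 ± 0.14 (adjusted p = 0.494).

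Pga5 was the one gene whose high-dose estimate over both sexes was above 0, at 0.04 ± 0.18 (adjusted p = 0.920). Female libraries were at 36.0, 42.5 and 65.8 CPM in controls, 23.2, 41.8 and 59.7 CPM at the low dose and 27.1, 35.6 and 62.4 CPM at the high dose. Male libraries were at 27.2, 60.5 and 100 CPM in controls, 34.4, 88.6 and 111 CPM at the low dose and 45.7, 81.0 and 128 CPM at the high dose. Male medians lay above female medians at every dose, with overlap.

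**Figure D2:**
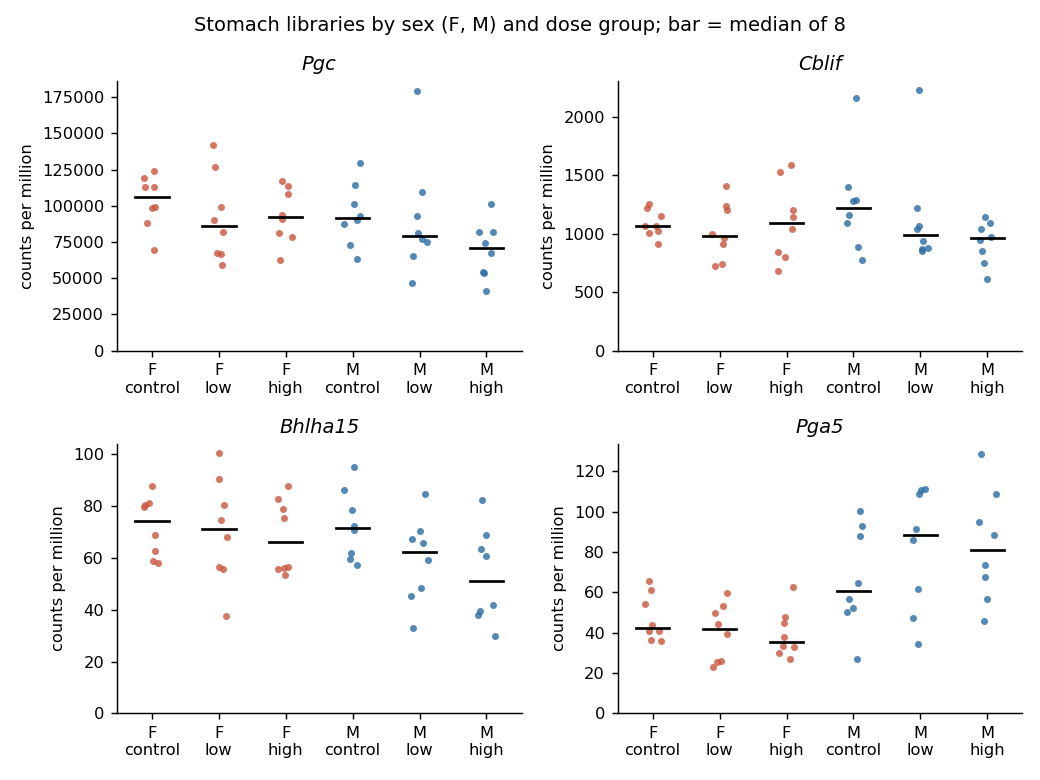
Stomach levels in CPM (linear axes from 0) by sex (F female, M male) and dose group, with 1 point per library and a bar at the median of 8. Dose groups of each sex overlap for all 4 genes, and the male Pga5 points reach 128 CPM where no female point exceeds 65.8 CPM.

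None of the 4 genes was called at the high dose over both sexes (edgeR, 1 at an unadjusted p under 0.05, Bhlha15), where 4.49% of the 15140 tested genes were called and 3610 were at an unadjusted p under 0.05. At the low dose none was called either (0 of 4 at an unadjusted p under 0.05), and the share of all genes called was 0%, with 909 genes at an unadjusted p under 0.05 and 26 called by DESeq2. Low-dose estimates ran from −0.17 ± 0.13 for Bhlha15 to 0.01 ± 0.18 for Pga5. Between the doses, high minus low was −0.19 ± 0.16 for Pgc, −0.11 ± 0.14 for Cblif, −0.11 ± 0.13 for Bhlha15 and 0.03 ± 0.18 for Pga5. None of these was called, where 0.707% of all genes were.

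In males alone the high-dose estimates were −0.44 ± 0.18 for Bhlha15 (adjusted p = 0.114), −0.37 ± 0.22 for Pgc (adjusted p = 0.295) and −0.36 ± 0.20 for Cblif (adjusted p = 0.248). Pga5 was at 0.35 ± 0.25 (adjusted p = 0.392). None passed, where 7.06% of all genes were called. In females the estimates were −0.13 ± 0.22 for Pgc, 0.04 ± 0.20 for Cblif, −0.10 ± 0.18 for Bhlha15 and −0.27 ± 0.26 for Pga5. None passed, and 0% of all genes were called there (880 at an unadjusted p under 0.05, 1 called by DESeq2). The difference between the sexes in the high-dose effect, female minus male, was largest in size for Pga5, at −0.62 ± 0.36 (adjusted p = 0.673). The other 3 genes were between 0.24 and 0.40. None was called, and 0% of all genes were, with 1187 at an unadjusted p under 0.05 and 0 called by DESeq2.

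The share of counts from ribosomal protein genes moved with the dose in the stomach. Its median was 2.08% in controls (1.74% to 4.56%), 2.17% at the low dose (1.90% to 4.55%) and 2.94% at the high dose (2.06% to 5.45%). With that share as a covariate, the high-dose estimates became 0.06 for Pgc, 0.04 for Cblif, 0.00087 for Bhlha15 and −0.05 for Pga5. The same term reduced the genes called at the high dose from 680 to 1. Because the share itself differed by dose, this fit cannot tell share and dose apart, here or where the term is used below. Summed parietal cell markers, all 12 of them detected, were at a median of 10746 CPM in controls, 10057 CPM at the low dose and 9170 CPM at the high dose. Summed forestomach squamous markers were at a median of 10639 CPM in controls, 9709 CPM at the low dose and 13963 CPM at the high dose. With their mean level as a covariate, the high-dose estimates were −0.24 for Pgc, −0.15 for Cblif, −0.26 for Bhlha15 and 0.10 for Pga5, and none was called. A parietal covariate was not run.

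Sex was compared next. In control stomachs, female minus male was 0.11 ± 0.22 for Pgc, −0.24 ± 0.20 for Cblif, 0.00028 ± 0.18 for Bhlha15 and −0.48 ± 0.25 for Pga5 (adjusted p = 0.722 for Pga5). None was called, where 0.172% of all genes were. Averaging the 3 dose groups, a contrast added after the levels were seen, Pga5 was lower in females by −0.87 ± 0.15 (adjusted p = 0.000239, 95% interval from −1.17 to −0.58). Pga5 was at 40.9 CPM in the median of 24 female libraries (23.2 to 65.8) and at 79.6 CPM in the median of 24 male libraries (27.2 to 128). It was the only one of the 4 genes called in that contrast, where 1.99% of all genes were called. Because the contrast followed a look at these levels, its p is not independent evidence.

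The sex difference in Pga5 held its direction in each batch. Male and female medians were 67.7 and 41.0 CPM in batch 1, 60.6 and 44.4 CPM in batch 2, and 92.9 and 25.7 CPM in batch 3. Within batch 1 the estimate was −0.52 (adjusted p = 0.472), within batch 2 it was −0.85 (adjusted p = 0.181), and without batch 3 it was −0.72 (adjusted p = 0.0117). The 5 male and 3 female libraries of batch 3 did not overlap. Leaving out single libraries moved the estimate between −0.92 and −0.83 and never ended the call.

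Pgc, Cblif and Bhlha15 were at 0.14 ± 0.13, −0.09 ± 0.12 and 0.19 ± 0.11 in the same averaged contrast, and none was called. Within batch 1 alone, Pgc was higher in females by 0.65 (adjusted p = 0.0338), whereas within batch 2 the estimate was −0.04. Pga5 has 2 annotated transcripts, and ENSRNOT00000072343 took 96.7% of its stomach counts. The other transcript took 3.26%, from 0 to 13.6% in single libraries. The other 4 genes have 1 transcript each.

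**Figure D3:**
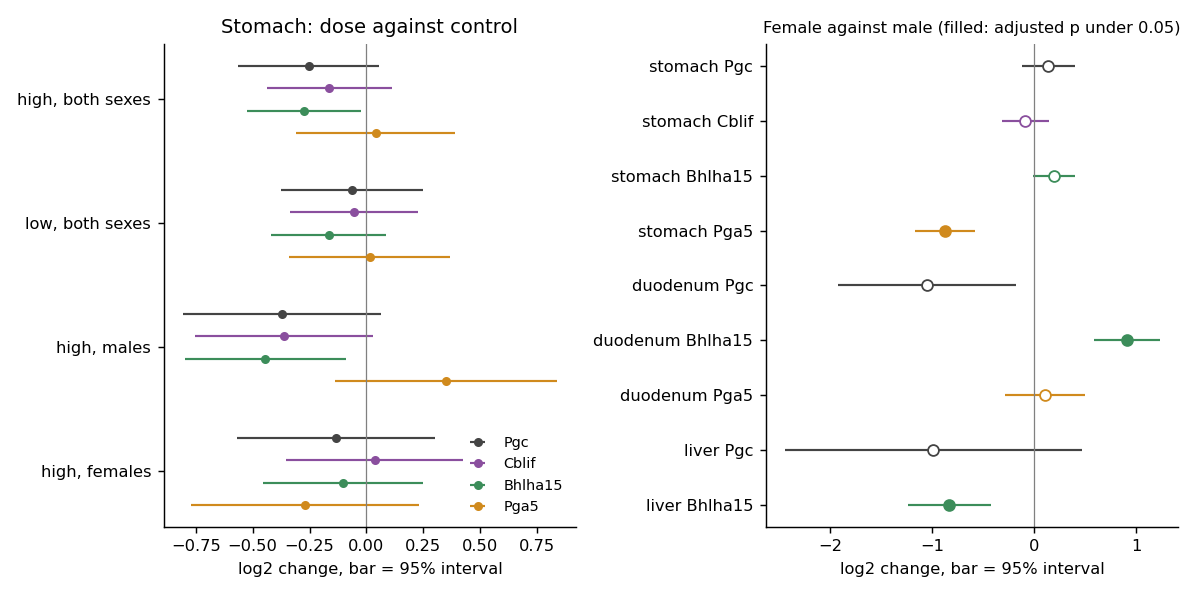
Log2 changes with 95% intervals: left, dose against control in stomach for 4 genes, over both sexes or within a sex; right, female against male averaged over the 3 dose groups, with filled points where the adjusted p was under 0.05. Most dose intervals on the left include 0, except those of Bhlha15 at the high dose (both sexes and males), whose adjusted p was 0.186 and 0.114; the filled points on the right are Pga5 in stomach and Bhlha15 in duodenum and liver.

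Across the 48 stomach libraries, Pgc, Cblif and Bhlha15 varied together, and no relation of Pga5 with them passed. Relations were computed on log2 CPM (prior count 2) with library sizes scaled by TMM factors, and the 6 pairs form 1 family. Summed markers in later relations are CPM of the plain library total. Pgc and Bhlha15 had Pearson r = 0.81 and Spearman rho = 0.77, each with a permutation p of 1e-05, the smallest 100000 resamples can give, and an adjusted p of 3e-05. Pgc and Cblif had r = 0.73 and rho = 0.74 (permutation adjusted p = 3e-05 for each). Cblif and Bhlha15 had r = 0.56 and rho = 0.59 (permutation adjusted p = 0.00014 and 8e-05). A library high in pepsinogen C was thus also high in intrinsic factor and in MIST1.

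These 3 relations were present in both large batches and both sexes. Pgc and Bhlha15 had r = 0.84 in 16 libraries of batch 1, 0.82 in 24 of batch 2, 0.87 in males and 0.66 in females. Pgc and Cblif had r = 0.75, 0.76, 0.76 and 0.76 in the same order. For Cblif and Bhlha15, r was 0.81, 0.52, 0.58 and 0.61. Without the 2 libraries farthest from the median of the first gene, r was 0.78, 0.71 and 0.49. In batch 1 the rank correlation of Pgc and Cblif was weaker, at rho = 0.50 (permutation adjusted p = 0.0798).

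Pga5 had r = −0.06 and rho = −0.12 against Pgc (permutation adjusted p = 0.703 and 0.492). It had r = 0.20 and rho = 0.05 against Cblif (permutation adjusted p = 0.258 and 0.760) and r = −0.11 and rho = −0.13 against Bhlha15 (permutation adjusted p = 0.537 and 0.492). Without the 2 farthest libraries, r was −0.09 against Pgc, −0.01 against Cblif and −0.12 against Bhlha15. Against Pgc, r was −0.45 in batch 1 and 0.06 in batch 2. Within a sex it was 0.09 in males and 0.20 in females. Against Cblif, r was −0.45 in batch 1, 0.35 in batch 2, 0.14 in males and 0.39 in females (permutation adjusted p = 0.0900 in females). Against Bhlha15, r was −0.32 in batch 1, −0.19 in batch 2, −0.09 in males and 0.35 in females (permutation adjusted p = 0.119 in females). None of these passed.

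**Figure D4:**
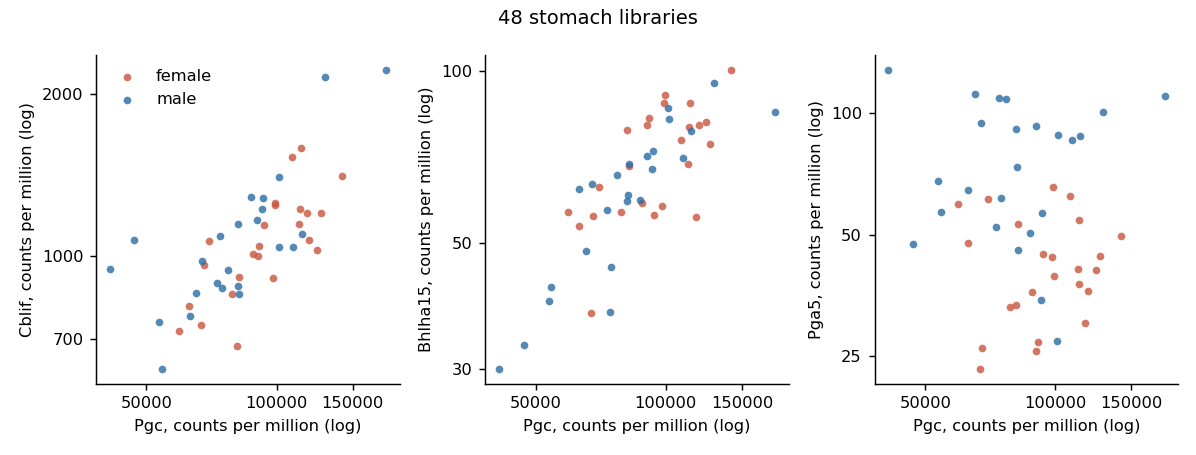
Cblif, Bhlha15 and Pga5 against Pgc in 48 stomach libraries on log axes in CPM, 1 point per library, coloured by sex. Cblif and Bhlha15 rise with Pgc (r = 0.73 and 0.81), and Pga5 does not (r = −0.06), with most male points above the female ones. The r values are from TMM-scaled levels, whereas the axes show CPM of the library total.

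Summed markers of other gastric cell types were set against the 4 genes. Over 20 relations of the 4 genes with summed markers of parietal, surface mucous, neck or gland mucous, forestomach squamous and acinar cells, 0 had an adjusted p under 0.05 by Pearson's r. The largest were Pga5 with gland mucous markers (r = −0.37, rho = −0.21, permutation adjusted p = 0.137 and 0.421) and Bhlha15 with parietal markers. The latter had r = 0.35 (permutation adjusted p = 0.137) and rho = 0.43, which passed by ranks (permutation adjusted p = 0.0438).

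The genes most like each member across stomach libraries, by Pearson r over 48 libraries, are a description with no test. For Pgc they were Aldh1l2 (0.86), a mitochondrial folate enzyme, Pycr1 (0.84), which makes proline, Slc3a2 (0.82), an amino acid transporter subunit, Asns (0.81), asparagine synthetase, and Habp2 (0.80). Bhlha15 was most like Anpep (0.87), aminopeptidase N, Cckar (0.85), a cholecystokinin receptor, Aldh1l2 (0.83), Tent5c (0.74) and Hdlbp (0.74). Cblif was most like Tent5c (0.75), Tcn2 (0.71), which encodes the blood carrier of vitamin B12, Asns (0.69), Pycr1 (0.69) and Ctsc (0.66). Aldh1l2, Pycr1, Asns and Tent5c each stood on 2 of these 3 lists. Pga5 was most like Slc16a5 (0.68), a monocarboxylate transporter, Pcna (0.68), the DNA clamp of replication, Rhbdl1 (0.64), Rcan1 (0.64) and Diablo (0.63). Its likeness was uneven over batches: Rcan1 had r = 0.20 in batch 1 and 0.86 in batch 2.

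Genes that work with the chief cell products were examined at the high dose in stomach, both sexes together, where the median log2 change of all genes was −0.01. Of all 15140 genes tested there, 3610 were at an unadjusted p under 0.05 and 4.49% were called, 401 higher and 279 lower, and the list counts are read against these. Of 12 zymogen granule and secretory pathway genes, 0 were called by edgeR (5 at an unadjusted p under 0.05), and the list's median was −0.08. Hspa5, the main chaperone of the endoplasmic reticulum, was at −0.27 ± 0.09 (adjusted p = 0.0799), and Xbp1, a regulator of secretory capacity, at −0.15 ± 0.06 (adjusted p = 0.145). Creb3l1 was at −0.18 ± 0.07 (adjusted p = 0.124). Atp2c2, a Golgi calcium pump, was at −0.24 ± 0.10 (adjusted p = 0.137) over both sexes and was called lower in high-dose males, at −0.44 ± 0.14 (adjusted p = 0.0447). That male call was lost without any 1 of 11 libraries and kept in 5 of 12 other settings.

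Other chief cell products of rodents numbered 4, and 0 were called (1 at an unadjusted p under 0.05). Their median was 0.52, with Chia, an acidic chitinase, at 0.80 ± 0.37 (adjusted p = 0.184), Rnase1 at 1.18 ± 0.77 (adjusted p = 0.351), and Cym, chymosin, at 0.24 ± 0.29. The remaining gene, Clps, lay at or below the estimate of Cym, and its value is not given here. Of the aspartic protease relatives of pepsinogen, 6 of 7 were measured and 0 were called (0 at an unadjusted p under 0.05). Ctse, cathepsin E, was at −0.12 ± 0.09 and Ctsd, cathepsin D, at 0.00396 ± 0.04.

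All 4 acid lipase relatives of Lipf were measured and 0 were called (3 at an unadjusted p under 0.05, as were 3610 of all 15140 genes). Lipn was at 0.66 ± 0.22 (adjusted p = 0.0638), Lipk at 0.64 ± 0.24 (adjusted p = 0.103) and Lipm at 0.46 ± 0.20 (adjusted p = 0.151), 3 lipases known from skin epithelium. Lipa, the lysosomal acid lipase, was at −0.04 ± 0.07. Summed squamous markers, of which 9 of 12 were in the table, ranged from 3140 to 29333 CPM among stomach libraries. Their median was 13963 CPM at the high dose against 10639 CPM in controls, and their part in the lipase values was not tested.

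Of the 13 genes that handle vitamin B12 after intrinsic factor binds it, 11 were measured and 0 were called (2 at an unadjusted p under 0.05). Mmut, the mitochondrial B12-dependent mutase, was at −0.17 ± 0.07 (adjusted p = 0.116) and Tcn2 at −0.14 ± 0.06 (adjusted p = 0.173). Among 10 genes linked to the control of zymogen release, 0 were called (1 at an unadjusted p under 0.05), and Sctr, the secretin receptor, was at −0.16 ± 0.08 (adjusted p = 0.202). Sctr was called higher in females over the 3 dose groups, at 0.23 ± 0.07 (adjusted p = 0.0469), and that call was lost without any 1 of 35 of the 48 libraries. Of the 10 symbols listed for metaplasia, 7 were measured and 0 were called (0 at an unadjusted p under 0.05). He4 on that list is an alias of Wfdc2, so it could not be measured apart. Cd44 was at 0.21 ± 0.13 and Wfdc2 at 0.25 ± 0.16.

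Among 13 regulators of the gastric epithelium, Foxa1 and Gata4 were called lower at the high dose and 0 were called higher, with a list median of −0.12, where 4.49% of all genes were called, 279 of them lower. Both encode pioneer-type factors of endoderm. Foxa1 was at −0.26 ± 0.07 (adjusted p = 0.0236) and Gata4 at −0.26 ± 0.07 (adjusted p = 0.0324). The call of Foxa1 was lost without male control replicate 4, male high replicate 4 or female control replicate 6. The call of Gata4 was lost without any of these 3 libraries or without male control replicate 2, male high replicate 3, female control replicate 8, female high replicate 3 or female high replicate 7. With the ribosomal protein share in the fit, Foxa1 was at −0.17 (adjusted p = 0.432) and Gata4 at −0.14 (adjusted p = 0.561).

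The neighbouring parietal cells, which secrete the acid that activates pepsinogen, had 3 of 12 markers called lower and 0 higher, where 4.49% of all genes were called, 279 of them lower. Slc26a9, a chloride transporter, was at −0.31 ± 0.08 (adjusted p = 0.0246), and Atp4a, the proton pump, was at −0.29 ± 0.09 (adjusted p = 0.0567). Esrrg was at −0.34 ± 0.10 (adjusted p = 0.0352) and Kcnj15 at −0.34 ± 0.10 (adjusted p = 0.0376). All 3 parietal calls were lost without male high replicate 4 and without female control replicate 6, and with the ribosomal protein share in the fit. The Esrrg call was lost without any 1 of 9 libraries and the Kcnj15 call without any 1 of 12. Each of the 3 calls was kept in 8 of 12 other settings. The list's median was −0.27.

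In the duodenum, 3 of the 5 genes had enough counts to be tested. Pgc was at a median of 4.88 CPM, but single libraries reached 89.5 CPM. Male controls were at 1.75, 17.2 and 88.7 CPM (lowest, median, highest), low-dose males at 0.843, 3.74 and 33.9 CPM and high-dose males at 1.35, 2.25 and 89.5 CPM. Female controls were at 1.39, 4.74 and 24.6 CPM, low-dose females at 2.01, 4.93 and 9.91 CPM and high-dose females at 4.01, 6.45 and 10.0 CPM. Levels of 10 CPM or more occurred in 11 libraries, of which 6 were controls, 1 low dose and 4 high dose. All groups overlapped.

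Dose tests in the duodenum called none of the 3 genes. At the high dose Pgc was at −0.72 ± 0.53 (adjusted p = 0.360), Pga5 at 0.22 ± 0.25 and Bhlha15 at 0.01 ± 0.20 (edgeR, 0 of 3 at an unadjusted p under 0.05), where 16.3% of 15189 tested genes were called. From the secretory, stimulus, regulator and parietal lists, edgeR called Runx1 at −0.42 ± 0.14, Sdf2l1 at 0.41 ± 0.13 and Rnf43 at −0.34 ± 0.12. With 16.3% of all genes called, a called gene is common in that contrast. Of 12 other settings, the Runx1 and Rnf43 calls were each kept in 5 and the Sdf2l1 call in 8. Sdf2l1 and Rnf43 each changed sign in 1, the fit with the ribosomal protein share. The median of that share was 3.02% in controls and 4.36% at the high dose, so the fit cannot tell share and dose apart. At the low dose Pgc was at −1.58 ± 0.58 (adjusted p = 0.251, under 0.05 before adjustment), Pga5 at 0.03 ± 0.25 and Bhlha15 at 0.20 ± 0.20. The share of all genes called there was 0%, with 2132 at an unadjusted p under 0.05 and 18 called by DESeq2. Pga5 was at a median of 0.585 CPM (0.0979 to 1.40), and Cblif at 0.383 CPM (0 to 2.70, detected in 46 of 47).

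Duodenal Pgc varied with surface mucous cell markers, the stomach lining genes Muc5ac, Gkn1, Gkn2 and Tff1. Across 47 libraries r was 0.69 and rho 0.59 (permutation adjusted p = 4e-05 and 0.0002, 8 relations in the family). Within batches r was 0.88 and 0.57, and without the 2 farthest libraries it was 0.59. It was 0.77 in males and 0.41 in females, where it did not pass (permutation adjusted p = 0.142). Within females, Pgc had r = −0.54 and rho = −0.43 with acinar markers (permutation adjusted p = 0.0325 and 0.167). The genes most like Pgc there were Gkn2 (r = 0.76), Gkn1 (0.75) and Muc5ac (0.67). The summed mucous markers ranged from 0.232 to 18.2 CPM, against a stomach median of 27314 CPM. How much stomach tissue was in the duodenal pieces was not tested. Duodenal Pgc was not set against the markers of neck, antral gland or Brunner gland mucous cells.

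Bhlha15 in the duodenum was higher in females. In control rats, female minus male was 0.74 ± 0.29 (adjusted p = 0.743), and Pgc was at −1.68 ± 0.78 (adjusted p = 0.874) and Pga5 at −0.11 ± 0.36. None of the 3 was called, where 0.079% of all genes were. Averaged over the 3 dose groups, Bhlha15 was at 0.91 ± 0.17 (adjusted p = 0.00108), and Pgc at −1.05 ± 0.44 (adjusted p = 0.161) and Pga5 at 0.11 ± 0.20 were not called. In that contrast 3.87% of all genes were called. Female libraries were at 4.65, 8.37 and 24.1 CPM (lowest, median, highest of 23) and male libraries at 2.86, 5.41 and 8.04 CPM (24), with overlap. Medians were 10.5 against 5.63 CPM in batch 1, 5.85 against 4.33 CPM in batch 2 and 9.25 against 7.39 CPM in batch 3, female first. Within batch 1 the estimate was 1.06 (adjusted p = 0.315) and within batch 2 it was 0.88 (adjusted p = 0.156).

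Markers of pancreatic acinar cells moved with this difference. Of 17 listed acinar genes, 15 were measured in the duodenum, and all 15 were called higher in females over the 3 dose groups, with a median of 4.17 on the log2 scale against −0.00198 for all genes. Their summed level was 3.06, 2780 and 64627 CPM in females (lowest, median, highest) and 1.04, 26.5 and 11903 CPM in males. Across 47 libraries Bhlha15 had r = 0.80 and rho = 0.81 with that sum (permutation adjusted p = 4e-05 and 8e-05). The relation was 0.80 and 0.78 within the batches, 0.66 in males, 0.82 in females, and 0.79 without the 2 farthest libraries. With the mean acinar level as a covariate, the sex estimate of Bhlha15 was 0.25 (adjusted p = 0.384). Plasma cells are another user of MIST1, and their summed markers had r = 0.09 and rho = 0.16 with it (permutation adjusted p = 0.709 and 0.440).

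The genes most like Bhlha15 in the duodenum were Trim50 (r = 0.90), Klk1b3 (0.88), Slc38a5 (0.88), Cckar (0.87) and Bin2 (0.87). Of the 12 secretory pathway genes, Rab26, Serpini1 and Derl3 were called higher in females and 0 lower, where 3.87% of all genes were called. Rab26, a granule-associated GTPase, was at 1.10 ± 0.30 (adjusted p = 0.0265), and at −0.08 with the acinar covariate. That covariate moved Serpini1 from 0.63 to 0.18 and Derl3 from 0.62 to 0.38, and neither was then called. Cckar was at 3.11 ± 0.62 (adjusted p = 0.00203), and at 0.23 with the acinar covariate (adjusted p = 0.822). From the regulator and parietal lists, Lgr5 at 0.47 ± 0.11 and Kcnq1 at 0.43 ± 0.08 were also called higher in females.

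In the liver, Pgc and Bhlha15 were tested. Pgc was detected in 38 of 46 libraries at a median of 0.540 CPM, was under 1 CPM in 27 and reached 40.2 CPM in the highest. Its medians were 1.09 CPM in controls, 0.173 CPM at the low dose and 1.35 CPM at the high dose. Levels of 10 CPM or more occurred in 3 control, 0 low-dose and 2 high-dose libraries. Pgc was at −2.85 ± 0.89 for low dose against control (adjusted p = 1.00 by edgeR, under 0.05 before adjustment) and at −0.43 ± 0.75 for the high dose (adjusted p = 1). Bhlha15 was at −0.01 ± 0.23 and 0.16 ± 0.24. None was called at either dose, where 0% of 13130 tested genes were, with 272 at an unadjusted p under 0.05 at the low dose and 446 at the high dose, and 0 called by DESeq2.

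Other stomach products appeared in liver libraries beside Pgc. Pooled over 46 liver libraries there were 2167 Pgc counts. Per 1000 Pgc counts, Cblif was at 10.6 in liver (exact 95% interval 6.71 to 16.0, counting error only) and 11.9 in stomach. Pla2g1b, a secreted phospholipase, was at 162 (144 to 181) in liver and 155 in stomach. Among genes kept by the count filter in liver, Pla2g1b was most like Pgc, with r = 0.93 against 0.52 for the next, Hpse. Cblif did not pass that filter, so the ranking could not hold it. Gkn1, a surface mucous product, was at 43.8 (35.3 to 53.9) in liver and 70.0 in stomach. Atp4a was at 38.8 (30.8 to 48.2) in liver and 62.0 in stomach. Single stomach libraries ranged from 27.4 to 219 for Gkn1 and from 30.9 to 104 for Atp4a, so the pooled liver values of both lay inside the spread of the stomach. Gkn2 was at 42.9 (34.5 to 52.8) in liver and 74.7 in stomach, and Cym at 7.84 (4.56 to 12.6) and 16.7. The liver intervals of Gkn1, Atp4a, Gkn2 and Cym lay below the pooled stomach values, and those of Cblif and Pla2g1b held them. Pga5 had 1 count in liver, or 0.461 per 1000 (0.0117 to 2.57), against 0.677 in stomach. In duodenum, pooled over libraries, Cblif was at 38.7 and Pga5 at 47.5 per 1000 Pgc counts. In the 13 duodenum libraries with at least 100 Pgc counts, the median was 10.7 for Cblif (4.05 to 116), against 12.2 in single stomach libraries, and 15.3 for Pga5 (1.10 to 94.4), against 0.612. Of the 342 duodenal Pga5 counts, 43.8% fell to the transcript that took 3.26% in stomach, by an estimated split. The Pga5 ratios of duodenum and stomach thus rest on different transcript mixes.

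Pgc and summed surface mucous markers had r = 0.80 and rho = 0.74 over 46 liver libraries (permutation adjusted p = 8e-05 for each, 8 relations). Within batches r was 0.89 and 0.68, in males 0.82, in females 0.79, and without the 2 farthest libraries 0.78. The mucous sum was from 0 to 9.10 CPM in liver. Whether stomach RNA reached the liver libraries during preparation was not tested.

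**Figure D5:**
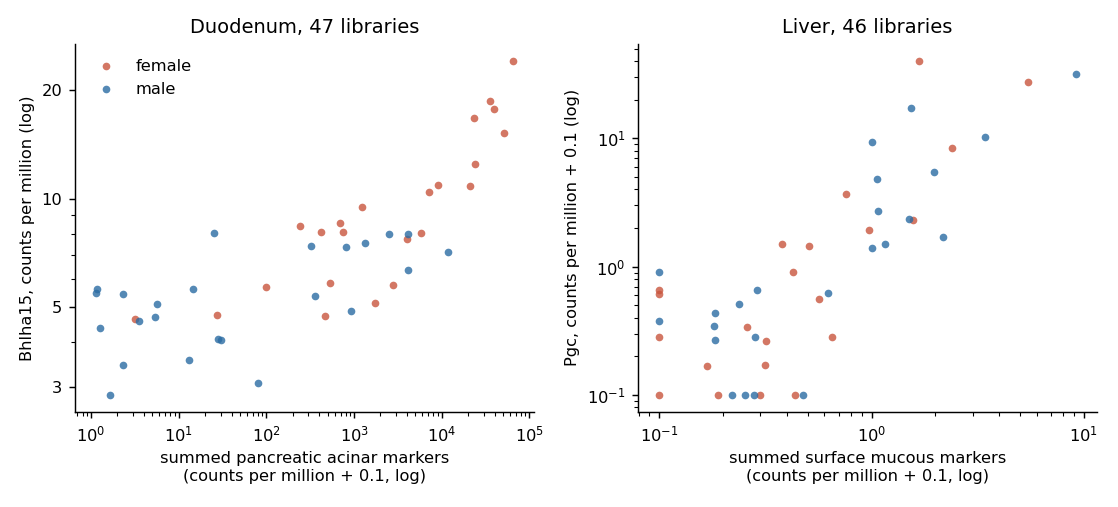
Left, Bhlha15 against summed pancreatic acinar markers in 47 duodenum libraries; right, Pgc against summed surface mucous markers in 46 liver libraries. Axes are logarithmic, in CPM of the library total with 0.1 added to the sums and to liver Pgc. Points are libraries coloured by sex. Both gene levels rise with the sums (r = 0.80 in each, from TMM-scaled gene levels), and the highest acinar sums are female.

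Bhlha15 in the liver was higher in males. Male libraries were at 1.79, 8.02 and 17.1 CPM (lowest, median, highest of 24) and female libraries at 1.28, 3.82 and 9.09 CPM (22), with overlap. In controls, female minus male was −0.59 ± 0.34 for Bhlha15 (adjusted p = 0.212) and −0.58 ± 1.03 for Pgc (adjusted p = 0.712). Neither was called, where 22.8% of all genes were. Averaged over the 3 dose groups, Bhlha15 was at −0.83 ± 0.21 (adjusted p = 0.00148) and Pgc at −0.99 ± 0.74 (adjusted p = 0.339). There 32% of all genes were called, so a called gene is common in that contrast. The direction of Pgc was not stable: under alternatives it reached 0.97 in controls and 1.90 in the averaged contrast.

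Batch bears on the liver result. Batch 3 held 6 male libraries and 1 female library, and its Bhlha15 median was 14.6 CPM against 4.62 and 4.70 CPM in batches 1 and 2. Within batch 1 the sex estimate was −0.52 (adjusted p = 0.139), within batch 2 −0.75 (adjusted p = 0.104), and without batch 3 −0.69 (adjusted p = 0.00956). Male medians were above female medians in each of these batches, at 6.82 against 4.62 CPM and 6.31 against 3.25 CPM.

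Summed acinar markers in liver were higher in females, the opposite direction to Bhlha15. Which of the listed genes make up the liver sum is not given here, so it is not read as acinar cells. Their sum was 0.411 to 2.71 CPM in males and 37.8 to 362 CPM in females, so the sexes form separate clusters and no pooled relation is given. Within a sex, Bhlha15 had r = 0.32 and rho = 0.37 with the acinar sum in males and r = −0.04 and rho = 0.0051 in females (permutation adjusted p of 0.260 and 0.971 for r). For plasma cell markers r was 0.24 in males and −0.37 in females, and neither passed (permutation adjusted p = 0.342 and 0.350). With summed parietal markers r was 0.63 and rho 0.55 in males (permutation adjusted p = 0.00416 and 0.0249) and r was 0.04 in females. In males that sum was 48.2 to 96.7 CPM and Atp4a at most 1.43 CPM, so the sum is not read as parietal cells. Over both sexes, where the offset between the sexes may enter, r was −0.47 in batch 1 and 0.07 in batch 2, and neither passed. Batch 3 held 6 male libraries, with a Bhlha15 median above those of males in batches 1 and 2. The part of batch in the male r was not tested. Genes most like Bhlha15 in liver included Map7 (r = 0.75), Clpb (0.75) and Crybg2 (0.74).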

How the data were processed

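RNA of stomach, duodenum and liver was read as 1 gene table per tissue of estimated counts, which the authors deposited. Between 9.47% and 11.9% of the values are not whole. The submitters' processing notes name STAR 2.7.11b, Salmon 1.10.3, UMI-tools 1.1.5, Trim Galore 0.6.10 with cutadapt 4.9, MultiQC 1.28 and FastQC 0.12.1, and the mRatBN7.2 build; order, settings, annotation and strand use: not given in the sources used here. Library totals ran from 4947825 to 23940175 in stomach, 5470039 to 25503801 in duodenum and 6153368 to 23716967 in liver; intervals and floors cover counting error only. Levels are CPM of the library total.

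Tests used edgeR 4.0.16 in R 4.3.3: rounded estimated counts, filterByExpr (minimum count 10, total 15), TMM, sex and dose groups with a batch term over all libraries of a tissue, quasi-likelihood tests, and Benjamini-Hochberg adjustment over all genes of that tissue, called under 0.05. The scripts were tested on simulated data. Alternatives used DESeq2 1.42.0, limma 3.58.1 with voom weights, other size factors, no filter, no batch term, single batches, a replicate block, only the groups compared, marker or ribosomal protein covariates, and single libraries left out. Relations used Pearson and Spearman permutation tests in SciPy 1.17.1. Gene levels in relations and likeness were log2 CPM on TMM-scaled library sizes, and marker sums were CPM of the library total.

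The members and gene lists were chosen with earlier results of these data known. All 5 members are named, as are up to 4 genes of a list with the smallest p at the high dose in stomach. Called genes of the secretory, stimulus, regulator and parietal lists in stomach and duodenum are named too. So are the 5 genes most like a member, given as fewer where brief. A few list genes and the liver likeness were named after their values were seen, and the averaged sex contrast, the relations in duodenum and liver, the within-sex relations and the alternatives for list genes were added after seeing the data. Replicate numbers did not pair libraries. Of the 5 chief cell markers, all but Lipf were detected in every stomach library.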

Additional observations from a re-analysis of the deposited data

Results flagged for a closer look

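Among 54 tests of a group of 6 to 8 libraries for a single library far from the rest, 4 libraries stood out, and chance alone flags about 1 in 20 groups. Cblif in stomach was at 2224 CPM in male low-dose replicate 1, against 1221 CPM in the next library of that group. Pgc in duodenum was at 33.9 CPM in male low-dose replicate 7, against 4.56 CPM in the next. Pgc in liver was at 17.0 CPM in male high-dose replicate 4, against 1.59 CPM in the next. Bhlha15 in duodenum was at 24.1 CPM in female control replicate 4, against 10.4 CPM in the next.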

How the results depend on the processing

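The called sex differences of Pga5 in stomach and of Bhlha15 in duodenum and liver kept their direction under every alternative run. Pga5 in stomach was at −0.52 within batch 1 and −0.85 within batch 2. Bhlha15 in duodenum was at 1.06 within batch 1, 0.88 within batch 2 and 0.25 with the acinar covariate, and in liver at −0.52 and −0.75 within the batches, none of which passed. Pgc in stomach passed within batch 1 (0.65). Uncalled estimates, near 0 or not, changed sign in many settings, and the cause was not tested. Liver Pgc did so from −0.43 (high), −0.58 (control sexes) and −0.99 (sex), reaching 0.78, 0.97 and 1.90. With a covariate for the ribosomal protein share, stomach estimates were 0.064, −0.054, 0.038 and 0.00087 for the high dose (Pgc, Pga5, Cblif, Bhlha15), 0.017, −0.012 and 0.0056 for the low dose (Pgc, Pga5, Cblif), and 0.047, −0.042, 0.033 and 0.086 for high minus low. The same covariate gave Pgc 0.11 in males, 0.017 in females and −0.094 for the sex difference, Bhlha15 0.013 in females, and in duodenum Pga5 −0.017 at the low dose, Sdf2l1 −0.047 and Rnf43 0.044 at the high dose. The acinar covariate gave 0.0011 for Pga5 in duodenum controls and −0.083 for Rab26. The squamous covariate gave −0.095 for Pga5 at the low dose.

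Voom weights gave Pga5 −0.0048 for high minus low and Cblif 0.080 for sex in stomach, Pga5 −0.13 at the low dose and −0.014 for sex in duodenum, and Pgc 0.0037 at the high dose and 0.028 for sex in liver. Without the batch term, duodenum Bhlha15 was at −0.037 (high) and Pga5 at −0.031 (low). With only the groups compared, Bhlha15 was at −0.023 in stomach controls and 0.0014 in liver at the low dose, and liver Pgc at 0.026 in controls. The replicate block gave −0.040 for Pga5 high minus low in stomach and 0.10 for liver Pgc at the high dose; it ended no call of the 5 genes, and called 1071 stomach genes at the high dose. Residuals of same-numbered libraries correlated over 0.1 in 35 of 120 stomach pairs. Libraries of different numbers were not compared, so this value cannot decide on pairing. The labels do not state pairing, and the numbers were not treated as pairs. Without batch 3, values were −0.0085 for Bhlha15 in stomach controls, 0.10 for liver Pgc (high) and 0.12 for liver Bhlha15 (low).

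Within batch 1, stomach Cblif was at 0.049 (high), 0.14 (high minus low), 0.038 (control sexes) and 0.45 (sex), and Pga5 at −0.10 (high minus low). Duodenum Pga5 was at −0.12, −0.29 and −0.33 (high, low, sex) and Bhlha15 at −0.036 and −0.058 (high, low). Liver Bhlha15 was at 0.034 (low) and Pgc at 1.90 (sex). Within batch 2, Cblif was at −0.11 in high-dose females, Pgc at −0.029 and −0.036 (control sexes, sex), Bhlha15 at −0.17 (control sexes), liver Pgc at 0.78 (high) and 0.97 (control sexes), and liver Bhlha15 at 0.11 (low). The r of Cblif and Pga5 was −0.45 in batch 1 and −0.012 without 2 libraries. The r of Pgc and Pga5 was 0.055 in batch 2, 0.086 in males and 0.20 in females, and that of Pga5 and Bhlha15 was 0.35 in females. In liver, r of Bhlha15 in males was 0.32 with acinar and 0.24 with plasma markers. Over both sexes the sign was the opposite, but pooled values may carry the offset between the sexes, which form separate acinar clusters. The liver relations that passed were 3 over both sexes, a count with the same limit, and 1 in batch 2 and in females.

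Leaving out single stomach libraries moved Bhlha15 in controls between −0.062 and 0.086, and Cblif in high-dose females between −0.052 and 0.10. Pga5 ranged from −0.034 to 0.12 (high), −0.037 to 0.091 (low) and −0.039 to 0.080 (high minus low), and Cblif from −0.18 to 0.030 (low) and −0.15 to 0.017 (high minus low).

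Counts of called genes moved more than the members. At the high dose in stomach, 680 genes became 4 without the batch term, 1 with the ribosomal protein share, 2 and 0 within batches 1 and 2, 347 with only the groups compared, 420 without the filter, 1616 with the squamous covariate and 1863 with voom weights. They became 4 without male high replicate 4 and 1465 without female control replicate 2. High minus low gave 107, and from 10 to 421 with 1 library left out, 318 by DESeq2 and 0 without batch 3. In males 1069 became 3 without the batch term, 0 with the ribosomal protein share and 1997 with the squamous covariate, and 275 to 1631 with 1 library left out. In duodenum 2481 at the high dose became 0 with the ribosomal protein share and within batch 1. Averaged over doses, female against male gave 302 genes in stomach (34 to 487) and 588 in duodenum (16 to 997).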
